A study of Mus musculus with 8 samples.

Results

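The transcripts of 7 granule protein genes, Camp, Ltf, Ngp, Chil3, Cd177, Mmp8 and Retnlg, were followed in single mouse neutrophils of bone marrow (BM) and peripheral blood (PB). These genes were taken by name from the 10970 genes of the deposited count table, by a rule that names the genes and sets no threshold on their values, and all 7 passed the filter on low counts. The cells were profiled with SCRB-seq, which tags each transcript molecule with an identifier (UMI), so that a count is a count of molecules. Donor mice received PBS or LPS, the cell wall endotoxin of Gram-negative bacteria, by intraperitoneal injection (0.5 mg/kg for LPS), and neutrophils were enriched from PB and BM with a negative selection kit and picked by hand. The 4 groups are named BM PBS, BM LPS, PB PBS and PB LPS. The titles of the samples give 0 h for the PBS groups and 4 h for the LPS groups, whereas the methods describe preparation 4 h after either injection. The labels give no genotype, strain, sex or age for these donors. By the methods all animals of the study were young adult males, and C57BL/6 J mice were the strain listed without a genetic change. Cells of 3 donors were pooled for the study's transfer experiments, and whether the sequenced cells came from pooled donors is not stated.

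Neutrophils carry their antimicrobial proteins in granules that are filled one kind after another while the cell matures in the marrow. Primary (azurophil) granules are filled in promyelocytes, secondary (specific) granules in myelocytes and metamyelocytes, and tertiary (gelatinase) granules and secretory vesicles in band and segmented cells. The messenger RNA for a granule protein is made while its granule is being filled and is known to fall away afterwards, and the protein stays stored. Marrow holds the whole series of stages, and resting blood holds mostly segmented cells. Camp encodes the cathelicidin antimicrobial peptide precursor, Ltf the iron-binding protein lactoferrin and Ngp neutrophilic granule protein, a cystatin-like protein of specific granules. Chil3 (Ym1) encodes a chitinase-like lectin, Cd177 a surface and granule membrane glycoprotein, Mmp8 neutrophil collagenase, and Retnlg resistin-like gamma, a small secreted protein made late in the lineage.

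In the mm9 build used for the counts, Camp (chr9:109749889-109751970, minus strand), Ngp (chr9:110322254-110325514, plus strand) and Ltf (chr9:110921796-110945270, plus strand) lie in a row on chromosome 9, 570.3 kb and 596.3 kb apart. Mmp8 (chr9:7558429-7568486, plus strand) is on the same chromosome far from them. Cd177 (chr7:25529004-25545330, minus strand), Retnlg (chr16:48872721-48874611, plus strand) and Chil3, annotated there as Chi3l3 (chr3:105950472-106022425, minus strand), are elsewhere. All 7 are annotated as protein-coding. Chil3 has a near-identical neighbour, Chil4, which is not a row of the table, and reads that fit both copies equally would have been dropped with other reads of more than 1 position, so the level of Chil3 is uncertain.

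Because the members moved together, the 250 bases before the start of each gene were read from RefSeq promoter entries of build GRCm38.p6, in which all 7 were found. A short core of the sites bound by the C/EBP transcription factors, which direct granulocyte maturation (TTGCNNAA, searched on both strands), was present before 4 of the 7 genes (Ltf, Mmp8, Ngp and Retnlg), and before 9.56% of 32851 mouse promoters in the same window. These sequences are shown so that the matches, written in capitals, can be compared by place. Each runs 5′ to 3′ on the strand of the gene and ends at the base before the start.
Ngp, chr9:110419558-110419807, plus strand: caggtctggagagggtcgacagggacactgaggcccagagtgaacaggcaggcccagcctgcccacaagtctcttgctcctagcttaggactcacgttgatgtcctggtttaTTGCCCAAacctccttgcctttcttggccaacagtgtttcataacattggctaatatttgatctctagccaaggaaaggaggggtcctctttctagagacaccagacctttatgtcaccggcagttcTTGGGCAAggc
Ltf, chr9:111019042-111019291, plus strand: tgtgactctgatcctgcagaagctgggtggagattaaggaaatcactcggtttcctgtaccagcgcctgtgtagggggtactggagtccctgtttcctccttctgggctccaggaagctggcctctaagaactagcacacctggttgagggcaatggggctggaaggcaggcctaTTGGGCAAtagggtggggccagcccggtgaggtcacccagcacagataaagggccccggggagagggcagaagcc
Mmp8, chr9:7558179-7558428, plus strand: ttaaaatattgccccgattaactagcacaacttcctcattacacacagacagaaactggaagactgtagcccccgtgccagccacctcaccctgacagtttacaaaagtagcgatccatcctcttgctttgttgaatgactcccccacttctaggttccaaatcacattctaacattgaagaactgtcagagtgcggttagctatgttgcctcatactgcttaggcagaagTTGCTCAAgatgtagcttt
Retnlg, chr16:48872358-48872607, plus strand: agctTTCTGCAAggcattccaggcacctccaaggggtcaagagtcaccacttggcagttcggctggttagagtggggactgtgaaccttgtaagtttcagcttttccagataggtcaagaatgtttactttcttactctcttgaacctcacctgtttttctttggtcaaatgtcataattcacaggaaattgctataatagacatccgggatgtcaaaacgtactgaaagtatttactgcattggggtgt
Ngp held the letters at 2 places, Ltf and Mmp8 held them once within the last 75 bases, and Retnlg held them at the far end of its window. A purine-rich core of PU.1 sites (GAGGAAG) was found before Mmp8 and in 10.6% of all promoters, and the letters TATAAA before Cd177 and in 12.4%. A match says only that these letters are present, and factor binding was not measured.

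Of the 1421 cells, 711 (batch 7 of the authors' annotation) carry names that match the 8 labelled samples, 2 per group with 83 to 92 cells each. Cells that share a name prefix are called a plate here, and every sample had a prefix of its own. The other 710 cells (batch 6, on 9 plates) have names that give the tissue and ctrl or treat_240. They were placed in the PBS and LPS groups by these words, which name no agent or dose. They are given as plate values outside the main test. The marrow prefixes ctrl_31 and ctrl_32 hold 45 and 44 cells, and whether they are parts of the same plate is not stated. The samples held 3240559 to 8361677 UMIs, with a median per cell of 32295 to 76133. Neutrophil markers (7 of 7 present, S100a8 and S100a9 far the highest) summed to between 133700 and 291400 per 1000000 UMIs (CPM) in every sample, lowest in PB PBS. Markers of T or NK cells, B cells, platelets and liver were at or below 15.9 CPM in each marrow sample but not in resting blood. In PB PBS the T or NK cell markers (4 genes) summed to 303.3 to 307 CPM, those of B cells (4 genes) to 135.1 to 242.9, of platelets (4 genes) to 287.6 to 422.6 and of liver (4 genes) to 1300 to 2039. In PB LPS the T or NK cell sum was below 1 CPM, the B cell sum 51.9 to 79.7, the platelet sum 73.4 to 123.5 and the liver sum 727 to 755. Of 5 monocyte markers only Ly6c2 was called in the comparisons of resting blood with marrow (lower) and of PB LPS with PB PBS (higher), with 872 and 896 CPM in BM PBS, 193 and 126 in PB PBS and 874 and 640 in PB LPS. Csf1r did not follow the members, with 65.4 and 134 CPM in BM PBS, 293 and 67.6 in PB PBS and 94.95 and 174 in PB LPS, and Ccr2, F13a1 and Ms4a6c were at 0 in both PB LPS samples. Cycling precursor markers (5 genes) summed to 23.2 to 75.9 CPM in BM PBS, 106.9 to 217.5 in BM LPS, 165.6 to 392.5 in PB PBS and 4.25 to 23.0 in PB LPS. In PB PBS most of this sum was Tubb5 (125 and 338 CPM), with Mki67 at 40.9 and 54.6 CPM. Top2a, Birc5 and Stmn1 were at 0 in both PB PBS samples. These genes stood at 21.5, 15.3 and 18.9 CPM in the first BM LPS sample and at 0 in the second. The authors' ratio of ERCC spike-ins was also highest in PB PBS, with medians per sample of 0.633 and 0.664 against 0.416 to 0.52 in the other groups. The part of these differences in the results below was not tested. CPM values are shares of a sample's UMIs, so they do not measure RNA per cell.

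In resting neutrophils all 7 transcripts were lower in blood than in marrow, and the transcripts of Ltf, Chil3, Camp and Ngp fell by the most. Together the 7 genes gave 9.44% and 11.2% of all UMIs in the BM PBS samples and 1.2% and 1.39% in the PB PBS samples. Ltf stood at 8118 and 10590 CPM in BM PBS and at 4.96 and 8.95 CPM in PB PBS. Chil3 stood at 3199 and 5450 CPM in marrow and at 3.57 and 3.70 CPM in blood, and these blood values rest on 18 and 12 UMIs. Camp stood at 13974 and 22399 CPM against 34.3 and 35.2 CPM. The values of both groups were far apart for each of these genes, by more than any spread between samples.

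Ngp fell from 18569 and 34411 CPM in BM PBS to 61.3 and 142 CPM in PB PBS. Cd177 was at 1269 and 1462 CPM in marrow and at 83.3 and 96.0 CPM in blood. The collagenase gene Mmp8 was kept to a larger extent, with 6648 and 6586 CPM in marrow and 1007 and 1250 CPM in blood. Retnlg, at 42665 and 31562 CPM in marrow, was still at 10849 and 12343 CPM in resting blood. Retnlg, at 31.2% of its marrow mean, kept the most. No member overlapped between these groups, but the share of all genes that lie apart in this way is not given here.

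**Figure D1:**
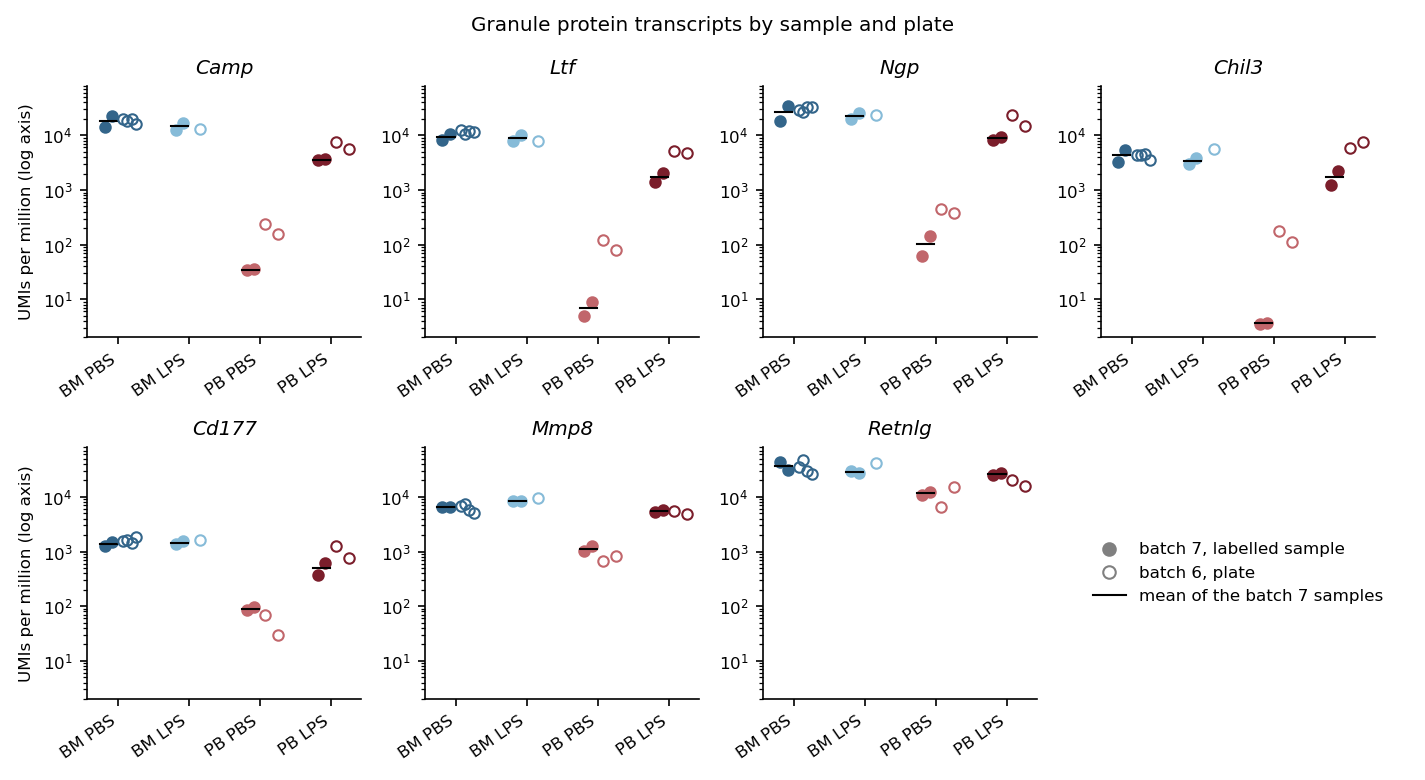
Level of each transcript in CPM (UMIs per 1000000, log axis) in the 4 groups. Filled points are the labelled samples of batch 7, black lines their means, and open points the plates of batch 6. PB PBS is the lowest group for every gene. Ltf and Chil3 reach the lowest values, and their batch 6 plates lie well above the batch 7 samples.

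The edgeR quasi-likelihood test with Benjamini-Hochberg adjustment, fitted over 8478 genes with all 8 samples, called all 7 lower in PB PBS than in BM PBS, where 1.43% of all genes tested were called lower. Over all genes 100 were called higher and 121 lower, and 213 and 84 with library size alone as the scaling. The log2 fold change was −10.94 (SE 0.42, adjusted p = 1.83e-07) for Ltf and −10.73 (SE 0.50, adjusted p = 6.89e-07) for Chil3. It was −9.56 (SE 0.32) for Camp, −8.56 (SE 0.49) for Ngp, −4.45 (SE 0.33) for Cd177, −3.07 (SE 0.16) for Mmp8 and −2.19 (SE 0.15) for Retnlg, with adjusted p-values between 8.22e-08 and 2.3e-05. The median over the 7 was −8.56, beside 0.15 over all genes. Nothing in the labels says that samples of a group came from separate animals, so these p-values measure the spread between plates of picked cells. All 7 were also called by DESeq2 and by limma-trend, and limma-voom called only Cd177 and Mmp8 (its SE for Ngp was 126 on the log2 scale).

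Read as the share of the BM PBS mean (CPM) that was left in PB PBS, the order of loss was Ltf with 0.0743%, Chil3 with 0.0841%, Camp with 0.191%, Ngp with 0.383%, Cd177 with 6.56%, Mmp8 with 17.1% and Retnlg with 31.2%. The widest gap in log2 ratio between neighbours in batch 7 lay between Ngp and Cd177, and the 4 genes with the greatest loss there are called the core here. The name stands for this loss alone and not for a class of granule. The ratio between neighbours in this order was taken within each sample and so is free of scaling. It did not overlap between PB PBS and BM PBS for 5 of the 6 neighbouring pairs, the exception being Ltf and Chil3. The order was set from these same samples, so this describes the size of the gaps and is no test of the order. With 2 samples against 2 an exact test cannot give a p-value below 0.333. Ngp, Cd177, Mmp8 and Retnlg kept the places 4 to 7 under all 20 alternative fits, while Ltf, Chil3 and Camp changed places among the first 3.

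In batch 6 all 7 were again lower in resting blood, with higher blood levels of the core than in batch 7. Its 2 PB PBS plates held 242 and 156 CPM of Camp, 120 and 79.0 CPM of Ltf, 452 and 374 CPM of Ngp, and 180 and 113 CPM of Chil3. Each of these 8 values was above both batch 7 samples. Cd177, at 69.7 and 30.0 CPM, and Mmp8, at 679 and 827 CPM, were below both batch 7 samples, and Retnlg at 6638 and 15000 CPM lay on either side of them. As a share of the pooled BM PBS plates of that batch, 0.856% of Ltf, 1.02% of Camp, 1.4% of Ngp, 3.01% of Cd177, 3.34% of Chil3, 11.3% of Mmp8 and 30% of Retnlg remained. The gap between Ngp and Cd177 was small there, and Chil3 fell on the other side of Cd177. Chil3 thus had rank 2 in the order of loss in batch 7 and rank 5 in batch 6, where a single cell held 465 of the 826 Chil3 UMIs of the first plate and another 306 of the 600 of the second.

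After LPS all 7 transcripts were higher in PB neutrophils. Chil3 was at 1242 and 2202 CPM in PB LPS, Ltf at 1409 and 2038 CPM, and Camp at 3480 and 3621 CPM. Ngp was at 8306 and 9305 CPM, and Cd177 at 370 and 616 CPM. Mmp8 was at 5267 and 5670 CPM, and Retnlg at 24736 and 27592 CPM. Every PB LPS sample lay above every PB PBS sample for every member, but the share of all genes for which this holds is not given here. Together the 7 genes gave 4.48% and 5.1% of all UMIs in the PB LPS samples.

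All 7 were called higher by the same edgeR test, beside 3.47% of all genes called higher. Over all genes 294 were called higher and 40 lower, but 140 higher and 268 lower with library size alone, so the balance of the calls depends on the scaling, while all 7 members were called higher under both. The log2 fold change between PB LPS and PB PBS was 9.81 (SE 0.48, adjusted p = 8.56e-07) for Chil3, 8.90 (SE 0.39) for Ltf, 7.59 (SE 0.30) for Camp and 7.36 (SE 0.46) for Ngp. It was 3.39 (SE 0.31, adjusted p = 0.000113) for Cd177, 3.19 (SE 0.17) for Mmp8 and 2.09 (SE 0.15) for Retnlg. The median over the members was 7.36 and that over all genes −0.11. These fold changes share the PB PBS samples with those between blood and marrow. Without the scaling by TMM (trimmed mean of M values) the median of all genes moved to −1.02, and the members ranged from 1.17 for Retnlg to 8.88 for Chil3, all 7 still called. DESeq2 and limma-trend called all 7 as well, limma-voom 2.

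**Figure D2:**
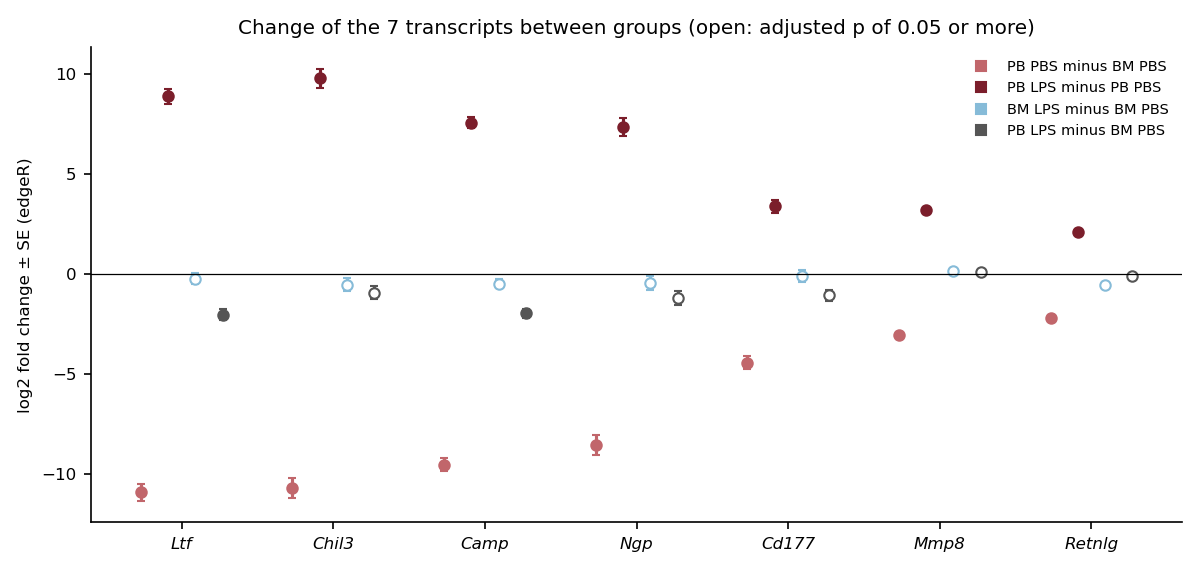
Fold change of each member on the log2 scale (vertical axis, edgeR, bars are SE) for 4 comparisons, with genes in the order of their loss from marrow to resting blood. Filled points passed an adjusted p of 0.05. Loss in PB PBS and gain in PB LPS are both largest for Ltf, Chil3, Camp and Ngp, and the points for marrow after LPS lie near 0.

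The return to the marrow level was partial and differed between genes and batches. Return stands here for the level of the PB LPS group, which holds other cells than PB PBS. In batch 7 the PB LPS mean reached 18.4% of the BM PBS mean for Ltf, 19.5% for Camp, 33.2% for Ngp, 36.1% for Cd177, 39.8% for Chil3, 70.5% for Retnlg and 82.6% for Mmp8. In batch 6 it reached 34.6% for Camp, 43.8% for Ltf, 49.6% for Retnlg, 65% for Cd177, 68.1% for Ngp and 77.8% for Mmp8. Chil3 alone exceeded the marrow there, at 156%, with 5978 and 7680 CPM on the PB LPS plates against 3597 to 4543 CPM on the 4 BM PBS plates. Camp and Ltf were the pair with the lowest return in both batches.

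Set against BM PBS, edgeR called Camp (log2 fold change −1.97, SE 0.23, adjusted p = 0.000533) and Ltf (−2.04, SE 0.28, adjusted p = 0.00173) lower in PB LPS, 2 of 7 beside 1.03% of all genes. Over all genes 341 were called higher and 87 lower, and 248 and 161 with library size alone. Ngp at −1.20 (adjusted p = 0.0939), Cd177 at −1.06 (adjusted p = 0.0653), Chil3 at −0.93 (adjusted p = 0.158), Retnlg at −0.10 and Mmp8 at 0.12 did not pass. Ngp passed without the first BM PBS sample (−1.59, adjusted p = 0.0302) and without either PB PBS sample (−1.22 both times, adjusted p = 0.0415 and 0.0453). The count was 5 with DESeq2 and 5 with library size alone as the scaling, the added genes being Ngp, Cd177 and Chil3 in both. Without the second PB LPS sample it was 4, with Cd177 and Chil3 added. With cells thinned to an equal depth of 5000 UMIs it was 6, Mmp8 being the exception.

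Blood and marrow were also compared after LPS. Camp was at 12693 and 16811 CPM and Ltf at 7950 and 10091 CPM in BM LPS, above both PB LPS samples for each gene. These 2 members were called lower in PB LPS than in BM LPS (log2 fold changes −1.47, SE 0.22, adjusted p = 0.0036 for Camp and −1.80, SE 0.28, adjusted p = 0.004 for Ltf), beside 0.46% of all genes. Over all genes 277 were called higher and 39 lower, and 157 and 106 with library size alone. When batch 6 was added with batch as a term, neither passed, with −1.19 (adjusted p = 0.0527) for Camp and −1.40 (adjusted p = 0.12) for Ltf. Retnlg had a log2 fold change of 0.46 here (adjusted p = 0.138), which turned to −0.13 with library size alone and passed without either BM PBS sample (0.47 both times, adjusted p = 0.0362 and 0.0304). Cd177 passed without the second PB LPS sample (−1.45, adjusted p = 0.0175), with library size alone (−1.56, adjusted p = 0.0114) and with DESeq2 (−0.96, adjusted p = 0.0254), each of which called 3 members.

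In the marrow LPS left the summed levels close to where they were. Ngp stood at 19639 and 25216 CPM in BM LPS, within the range of its BM PBS samples, and Chil3 at 2929 and 3883 CPM. Cd177 stood at 1354 and 1556 CPM, and Mmp8 at 8289 and 8295 CPM, the latter above both BM PBS samples. Retnlg at 29997 and 27091 CPM was below both BM PBS samples. In batch 6 the single BM LPS plate had 40850 CPM of Retnlg, within the range of 25734 to 46476 CPM of the BM PBS plates, so the lower level was not seen there. The same plate had 9515 CPM of Mmp8 and 5724 CPM of Chil3, both above all 4 BM PBS plates, whereas its Camp (13105 CPM), Ltf (7975 CPM) and Ngp (23157 CPM) were below all 4.

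No member was called between BM LPS and BM PBS by edgeR, where 0.0472% of all genes were called lower. Over all genes 2 were called higher and 4 lower, and 6 and 4 with library size alone. At an unadjusted p under 0.05 there were 2, Retnlg (log2 fold change −0.56, SE 0.14, adjusted p = 0.313) and Camp (−0.49, SE 0.22, adjusted p = 0.61). DESeq2 and limma-trend called 0, with 2 and 1 at an unadjusted p under 0.05, and limma-voom called Retnlg. Retnlg was also called without the second BM PBS sample (−0.74, adjusted p = 0.045). The sums weight each cell by its UMIs, and with every cell weighted equally the mean of Camp was 9026 and 12371 CPM in the BM PBS samples and 11016 and 12499 CPM in the BM LPS samples. In the sums of batch 7 Camp was lower after LPS on average, and with equal weights it was not. In batch 6 it was lower with equal weights too, at 8639 CPM on the BM LPS plate against 10540 to 14067 CPM on the BM PBS plates.

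The difference between the LPS and PBS groups was not the same in both tissues for any member. The interaction term, which is the LPS fold change in blood minus that in marrow, was positive for all 7 (beside 1.45% of all genes called higher), from 2.65 (SE 0.21, adjusted p = 4.77e-05) for Retnlg to 10.34 (SE 0.56, adjusted p = 3.45e-06) for Chil3. Over all genes the term was called higher for 123 and lower for 4, and for 45 and 19 with library size alone, where all 7 members were still called. It was called for 7 of 7 by DESeq2 and limma-trend and for 1, Mmp8, by limma-voom. The term shares the PB PBS and BM PBS samples with the difference between resting blood and marrow, which was −10.73 for Chil3. The groups hold different cells, and the paper reports that neutrophils leave the marrow early after LPS. A change within cells and a change in which cells were in blood cannot be told apart here.

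Within the marrow the UMIs of the core lay more in few cells than those of Mmp8 and Retnlg did. After thinning, Camp was still seen in every BM PBS cell of batch 7, and at 5 or more UMIs in 79.5% and 98.9% of them. The 10% of cells with the most Camp UMIs held 80.1% and 76.3% of its UMIs in the BM PBS samples. For Chil3 the share was 88.3% and 79.5%. For Mmp8 it was 50.9% and 43.2%, and for Retnlg 43.7% and 36.5%. The median cell showed the same contrast, with 1859 and 4947 CPM of Camp, far below the summed level, and 40560 and 40107 CPM of Retnlg, near or above it.

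In the BM LPS samples the richest 10% of cells held less of the core, 54.6% and 57.2% for Camp and 59.2% and 62.4% for Chil3, and the median cell held 5126 and 5804 CPM of Camp. These values lay apart from those of BM PBS in batch 7. The richest cells were ranked by raw UMIs, so cell depth enters these shares. After thinning, the coefficient of variation of Camp over cells was 1.58 and 1.23 in BM PBS and 1.13 and 1.04 in BM LPS. In batch 6 the share for Camp was 51.8% to 65.5% on the BM PBS plates and 68.6% on the BM LPS plate, so the lower share after LPS was not seen there. The coefficient of variation of Mmp8 over cells after thinning was 0.931 and 0.665 in BM PBS and 0.494 and 0.518 in BM LPS. In batch 6 it was 0.577 to 0.761 on the BM PBS plates and 0.53 on the BM LPS plate.

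**Figure D3:**
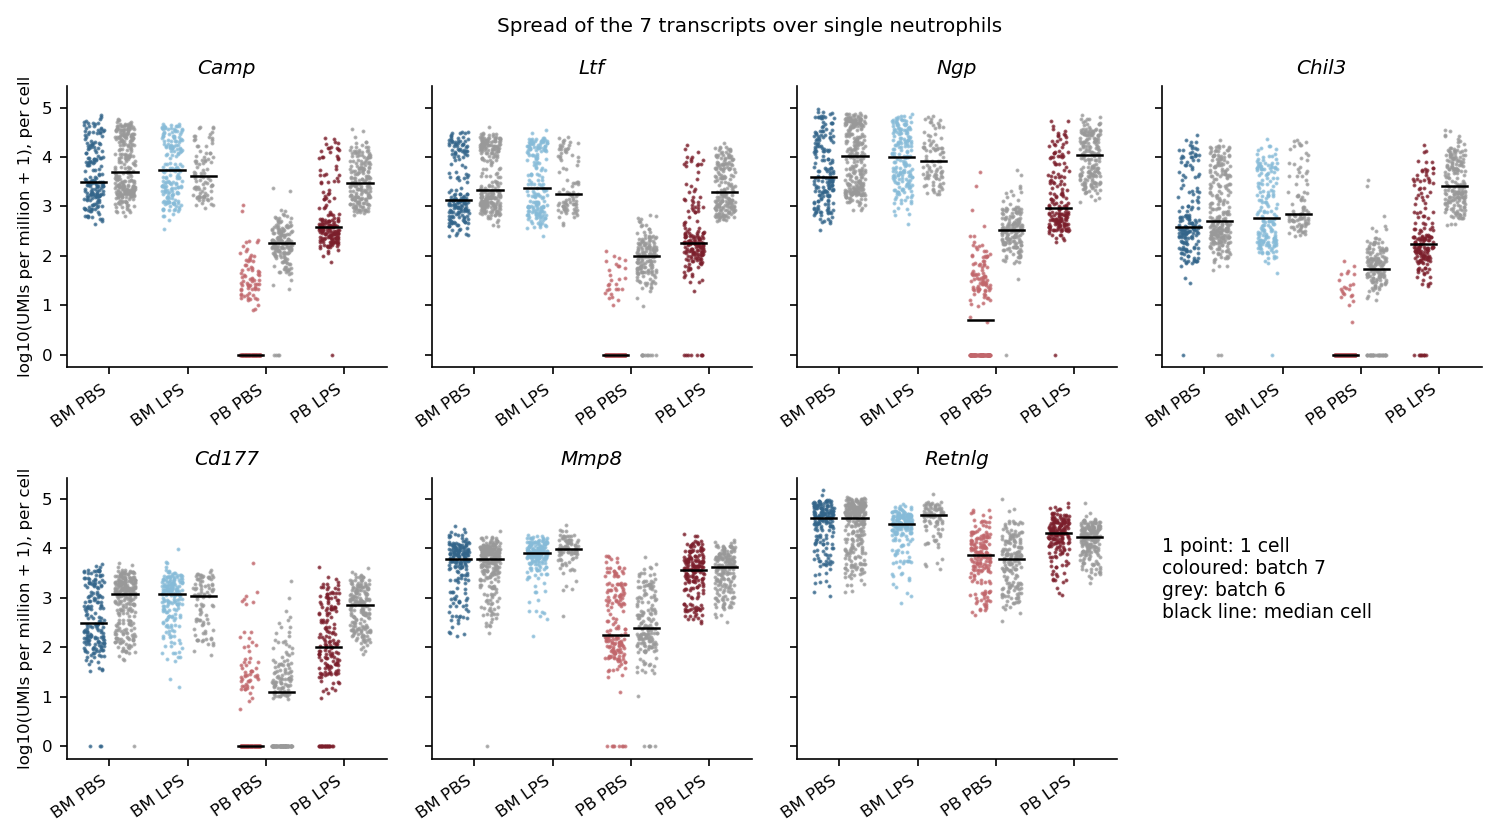
Each point is a cell, plotted by the log10 of its CPM plus 1 for each gene, with both samples or all plates of a group joined. Coloured points are batch 7, grey points batch 6, and black lines median cells. In PB LPS of batch 7 the core genes form a dense band with a tail of rich cells, and in batch 6 the whole group is shifted upward. Mmp8 and Retnlg stay high in most cells of marrow and PB LPS.

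In PB PBS of batch 7 the few remaining Camp and Ngp transcripts came largely from few cells. Of the 173 Camp UMIs of the first sample 89 were in a single cell, and of the 459 Ngp UMIs of the second sample 367 were. The 25 and 29 Ltf UMIs were scattered over 13 and 15 cells, and the 18 and 12 Chil3 UMIs over 12 and 10 cells. At least 1 Camp UMI was seen in 40% and 43% of cells. After thinning to 5000 UMIs this share was 8.89% (95% Clopper-Pearson interval 3.92 to 16.8%) and 11.6% (5.72 to 20.3%), and the intervals cover counting error only. In batch 6 nearly all resting blood cells, 97.7% and 97.6%, had a Camp UMI, with a median of 212 and 145 CPM. Barcodes can pick up stray molecules from neighbouring wells, and the part of this in low values was not tested. The cell names end in a number, and all 95 numbers were shared among the 17 plates. Whether these numbers are well positions is not stated.

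Retnlg was found in every cell of the first PB PBS sample and in 98.8% of the second after thinning, with a median cell of 7208 and 7467 CPM. Mmp8 lay between these patterns. It was seen in 61.1% (50.3 to 71.2%) and 68.6% (57.7 to 78.2%) of PB PBS cells after thinning. Its median cell there held 151 and 241 CPM, against 5709 and 6725 CPM in BM PBS.

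The return of the core after LPS was general in batch 6, and in batch 7 it was uneven in amount over cells. After thinning, a Camp UMI was seen in 87.9% and 84.9% of the PB LPS cells of batch 7, and an Ngp UMI in 94.5% and 97.7%. For Ltf these shares were 52.7% and 75.6%, and for Chil3 51.6% and 70.9%. In PB PBS of batch 7 no share of these 4 genes was above 11.6%. In the PB LPS samples of batch 7 the richest 10% of cells held 86.4% and 74.4% of the Camp UMIs, and the median cell held 339 and 384 CPM. Median cells were thus far below the summed level of 3480 and 3621 CPM. On the batch 6 plates the richest 10% held 51.5% and 55.3%, with median cells of 3648 and 2333 CPM. For Mmp8 the batches were alike, with median cells of 3700 and 3759 CPM in batch 7 and of 4725 and 3203 CPM in batch 6.

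Counting in each cell how many of Camp, Ltf, Ngp and Chil3 reached 5 thinned UMIs, none did so in 45.1% and 47.7% of PB LPS cells of batch 7, and all 4 did in 9.89% and 14%. On the batch 6 PB LPS plates no cell was without any of them, and 62.1% and 72.5% had all 4. In BM PBS all 4 were reached in 19.3% and 40.2% of cells in batch 7 and in 31.8% to 46.2% on the batch 6 plates. No resting blood cell of either batch had more than 2 of the 4. The 41 PB LPS cells of the first sample without any gene at that level still held 909 CPM of the 4 genes together, of which Ngp was 46% and Camp 29.9%, beside 57.5% and 24.1% over the whole sample. Cells of this class held 1191 CPM in the second PB LPS sample, and 65.5 and 56.5 CPM in the PB PBS samples of batch 7.

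**Figure D4:**
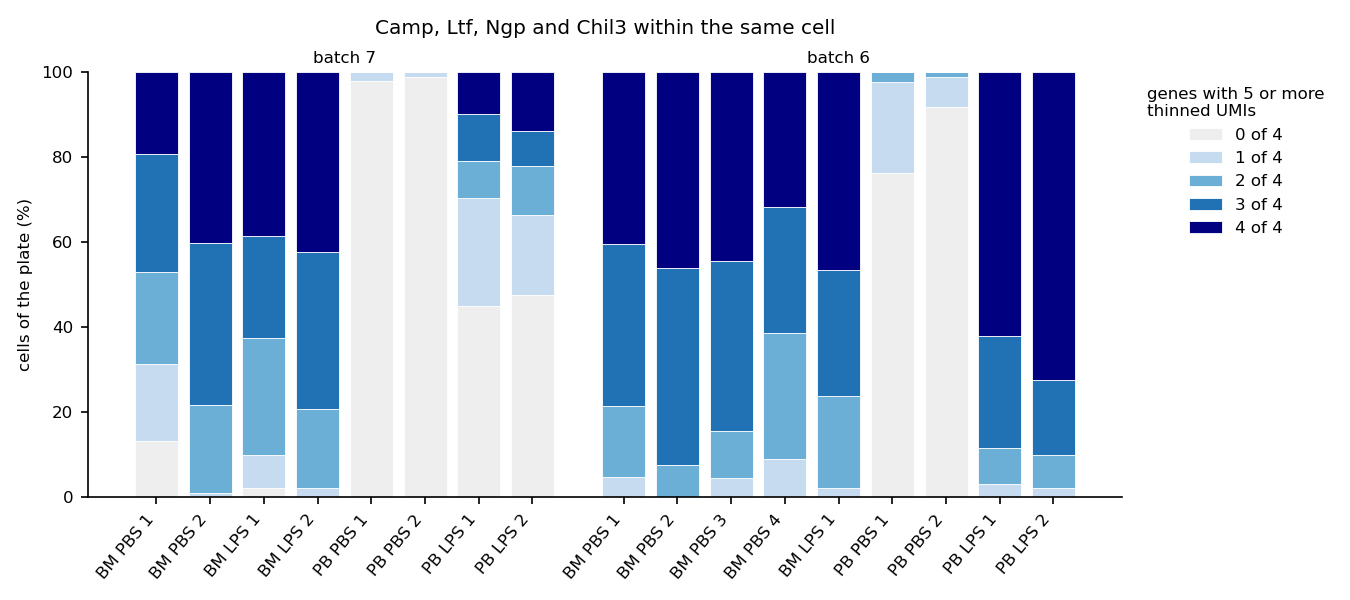
Percent of the cells of each plate (vertical axis) in which 0 to 4 of the genes Camp, Ltf, Ngp and Chil3 had at least 5 UMIs after thinning to 5000 per cell. Resting blood of batch 7 is almost wholly in the lowest class (97.8% and 98.8% of cells), and that of batch 6 has 76.1% and 91.7% there. PB LPS is mixed in batch 7, with 9.89% and 14% of cells in the highest class, and reaches 62.1% and 72.5% in batch 6.

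Over the cells of a marrow or PB LPS sample the 4 core genes rose and fell together. As a description, with cells of a plate sharing library and depth, Spearman correlations of thinned counts between pairs of them ran from 0.597 to 0.863 in the BM PBS samples, 0.648 to 0.907 in BM LPS and 0.388 to 0.603 in PB LPS of batch 7. Retnlg went the other way in marrow. Its correlation with the core genes was −0.633 to −0.334 in BM PBS and −0.719 to −0.581 in BM LPS, and on the batch 6 marrow plates −0.731 to −0.391. In PB LPS the values lay near or above 0, with 0.046 to 0.268 in batch 7 and −0.113 to 0.046 in batch 6. Cd177 sided with the core in marrow, with 0.306 to 0.53 in BM PBS and 0.316 to 0.543 in BM LPS of batch 7 and 0.143 to 0.677 on the batch 6 marrow plates. Mmp8 showed no steady relation to the core in marrow, with 0.055 to 0.343 in BM PBS and −0.173 to 0.095 in BM LPS of batch 7, −0.287 to 0.46 on the batch 6 BM PBS plates and −0.149 to −0.092 on the BM LPS plate. In resting blood of batch 7 counts were too sparse for these values to be read. In batch 6 a Camp UMI was seen in 69.3% and 50% of resting blood cells after thinning. Correlations between pairs of core genes there ran from −0.074 to 0.523 in PB PBS and from 0.548 to 0.783 in PB LPS.

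The make-up of the core varied between groups. In batch 7 Chil3 made up 7.29% and 7.48% of the core UMIs in BM PBS, 6.78% and 6.93% in BM LPS, 3.43% and 1.95% in PB PBS, and 8.6% and 12.8% in PB LPS. In batch 6 its share was 5.62% to 7.31% in BM PBS, 11.5% in BM LPS, 18.1% and 15.6% in PB PBS, and 14.1% and 23.4% in PB LPS. The share in resting blood was thus below that of marrow in batch 7 and above it in batch 6, while that in PB LPS was above BM PBS in both. These shares were not tested. The authors' clustering split the cells of both batches into 3 clusters, with 17826 CPM of Camp in the first (672 cells), 513 CPM in the second (479 cells) and 6205 CPM in the third (270 cells). Chil3 was highest in the third cluster, at 5624 CPM against 4482 CPM in the first. These levels join both batches, and by group Chil3 was higher in PB LPS than in BM PBS only in batch 6. In PB LPS it stood at 5978 and 7680 CPM in batch 6 and at 1242 and 2202 CPM in batch 7. Since the clusters were built on these same cells, these values are a description.

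Other granule genes were counted from lists by granule class, to be read beside the 1.43% of all genes called lower in PB PBS than in BM PBS and the 3.47% called higher in PB LPS than in PB PBS, and beside all-gene medians of 0.15 and −0.11. Among the 21 other specific granule genes tested, 9 were lower in PB PBS than in BM PBS and 10 were higher in PB LPS than in PB PBS, with median log2 fold changes of −1.19 and 1.49. Lcn2, the siderophore-binding protein lipocalin 2, fell by 3.88 and rose by 4.93 on the log2 scale, and in PB LPS it was above BM PBS by 1.05 (adjusted p = 0.00531), a comparison in which no member was called higher. Cybb, the catalytic subunit of the NADPH oxidase, fell by 4.70 and rose by 5.11. Lrg1, leucine-rich alpha-2-glycoprotein, was higher in resting blood than in marrow (0.92, adjusted p = 0.0416) and rose further after LPS (1.49).

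Of the 16 gelatinase granule genes 6 were lower in resting blood and 6 were higher after LPS, with medians of −0.92 and 0.85. Mmp9, gelatinase B, was among the lower ones at −1.30 and had a value of −0.09 after LPS (adjusted p = 0.884), whereas Mmp25 fell by 2.91 and rose by 3.44. For the 11 secretory vesicle genes 2 were lower and 7 were higher, with medians of 0.02 and 1.29, and Cd14, the LPS co-receptor, rose by 4.51. This list shares Fpr1, Fpr2, Itgam, Itgb2 and Vamp2 with the gelatinase list. Of the 12 azurophil genes that passed the filter 2 were lower and 2 were higher, Lyz2 and Serpinb1a in both cases, and Hexa fell after LPS. Mpo, Elane and Prtn3, the defining azurophil proteins, did not exceed 21.6 CPM in any of the 8 samples. Among 9 regulators of granule genes, Cebpe, needed for secondary granule formation, fell by 4.58 (adjusted p = 0.0225) and had a value of 0.26 after LPS (adjusted p = 0.943), with 8.53 and 16.7 CPM in PB PBS and 2.5 and 13.1 CPM in PB LPS. Cebpb, induced in emergency granulopoiesis, rose by 2.02 after LPS (adjusted p = 0.0131).

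The 10 other genes whose profile over the 8 samples was most like the mean profile of the members were Flna, Actr3, Nfu1, Arpc5, R3hdm4, Cybb, Tbc1d8, Ifitm6, Lgals3 and Anxa3, with Pearson correlations from 0.9726 to 0.992 among 3190 genes compared. The samples share 4 groups, so these correlations mostly describe 4 group levels. Anxa3, which also stands in the specific granule list, was at 223 and 231 CPM in BM PBS, 1.78 and 12.3 CPM in PB PBS and 122 and 285 CPM in PB LPS.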

How the data were processed

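The authors trimmed reads with Cutadapt 1.15, aligned them to mm9 with STAR 2.6.0a, collapsed uniquely mapped reads that shared a UMI, and quantified genes for each barcode with HTSeq 0.11.2. They kept cells with more than 500 and fewer than 4000 genes and over 5000 UMIs, among other filters. The deposited table holds raw UMI counts, with no normalization and 0 unused sample columns. The deposited annotation adds a fraction per cell, the ratio of ERCC spike-ins (denominator not given), and the authors' cluster number, which is other than a measurement. The annotation used for counting and any doublet treatment are not given in the sources used here, and doublets were not called.

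Genes seen in at least 10 cells were kept (9919), UMIs were summed per labelled sample, and the sums were tested two-sided with edgeR 4.0.16 (filterByExpr, TMM, quasi-likelihood, Benjamini-Hochberg at 0.05) in R 4.3.3, with all 4 groups in 1 model. Alternatives were DESeq2 1.42.0, limma 3.58.1, other scalings and filters, thinning of cells to 5000 UMIs, the replicate block and leaving out samples. limma-trend was added after seeing the data. TMM factors ran from 0.694 in PB LPS to 1.375 in PB PBS, and the common dispersion (spread between samples beyond counting error) was 1.056. The fits were also run on simulated data, but their error rate at the dispersion and scaling of these samples was not tested. Levels are CPM of the sums. The study tested cells with Seurat, whereas sums were tested here because cells of a sample are not replicates. Named genes are the 7 members, the granule lists and the 10 non-members of at least 50 CPM with the most similar profile. The members and lists were chosen with earlier results of these data known. Intervals cover counting error only. Replicate numbers were not shown to pair the samples. Correlations of same-numbered deviations over all genes ran from −0.018 to 0.005, and such values cannot exclude shared animals or a shared preparation.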

Additional observations from a re-analysis of the deposited data

Results flagged for a closer look

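The fold change after LPS differed between blood and marrow for all 7 members by the interaction term of the edgeR fit (Benjamini-Hochberg adjusted over 8478 genes). The difference, LPS effect in PB minus LPS effect in BM on the log2 scale, was 10.34 for Chil3, 9.14 for Ltf, 8.08 for Camp and 7.80 for Ngp. It was 3.48 for Cd177, 3.06 for Mmp8 and 2.65 for Retnlg, with adjusted p-values from 1.45e-06 to 0.00137. Each member was higher in 2 of 2 PB LPS samples than in both PB PBS samples, and the share of all genes for which this holds is not given here. No group held enough samples for a test of single outlying samples.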

How the results depend on the processing

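The loss of all 7 members in resting blood, their gain after LPS in blood and the interaction kept their direction under all 20 alternatives and stayed called except under limma-voom, which called 2, 2 and 1. The smaller differences moved. For BM LPS against BM PBS limma-voom and thinning to 5000 UMIs each called 1 member, and leaving out samples gave 0 to 1. For PB LPS against BM LPS limma-voom called 1, DESeq2 3, library size alone 3, thinning 5 and the fit with batch 6 added 0, and leaving out samples gave 2 to 3. For PB LPS against BM PBS limma-voom called 1, library size alone 5, DESeq2 5 and thinning 6, and leaving out samples gave 2 to 4. With the replicate block 4 members were called for PB LPS against BM LPS and 5 for PB LPS against BM PBS, and the block changed no other count of members. Since the replicate numbers were not shown to pair the samples, no weight is put on it.

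Some fold changes on the log2 scale turned sign. For BM LPS against BM PBS thinning gave 0.01 for Ltf, 0.14 for Ngp and 0.37 for Cd177. Leaving out the first or the second BM PBS sample moved Ngp between −0.83 and 0.11 and Cd177 between −0.22 and 0.04, and Cd177 was at 0.09 with library size alone and at 0.02 without the 2 cells of each sample richest in the members. For PB LPS against BM LPS Mmp8 was at 0.01 and 0.08 when a BM LPS or a PB LPS sample was left out, and Retnlg at −0.13 with library size alone and −0.08 after thinning. For PB LPS against BM PBS Mmp8 was at −0.27 with library size alone, −0.43 after thinning and, when a PB LPS sample was left out, between −0.01 and 0.19, and Retnlg was at 0.10 without the first BM PBS sample. The cause was not tested.

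Genes called over the whole table numbered 221 by edgeR and 942 by DESeq2 for PB PBS against BM PBS, 334 and 1047 for PB LPS against PB PBS, 6 and 191 for BM LPS against BM PBS, 316 and 930 for PB LPS against BM LPS, 428 and 1264 for PB LPS against BM PBS, and 127 and 487 for the interaction. Adding batch 6 gave 416, 651, 27, 532, 691 and 203 in the same order, and limma-voom 370, 10 and 536 for the first, the third and the fourth of these. limma-trend called 342 for the first. For BM LPS against BM PBS library size alone gave 10, thinning 36 and the replicate block 13, and library size alone gave 64 for the interaction. Leaving out samples gave 108 to 342, 146 to 400, 2 to 28, 144 to 382, 295 to 390 and 80 to 168 in that order. With library size alone the median of all genes moved from 0.15 to 0.67 for PB PBS against BM PBS and from −0.17 to −1.24 for the interaction.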
